A study of Oryza sativa with 35 samples.

Results

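Expansins and xyloglucan endotransglucosylase/hydrolases (XTHs) are 2 families of secreted proteins that act on the cell wall, and their transcripts were followed through chilling and recovery in rice. A locus was taken as a member when its Swiss-Prot description contained the word expansin or the words xyloglucan endotransglucosylase, and 91 of the 57778 loci in the tables met this rule. By description, 35 were alpha-expansins (EXPA), 21 beta-expansins (EXPB), 5 expansin-like genes (EXLA and EXLB) and 30 XTHs. Expansins carry the names of rice proteins. The XTHs carry the name of the closest Swiss-Prot entry, which was an Arabidopsis protein for every XTH except a locus matched to a wheat protein, so each XTH is given here by its rice locus and the name of its match is not evidence of the same function. The plants were 9311, an indica rice, and DC90, a line of the 9311 background that carries the wild rice locus CTS-12 on an introgressed segment of chromosome 12 and that the labels call W9. DC90 stands for a single introgression line, so differences from 9311 cover everything that its wild rice segments carry. Whole plants of both genotypes, 30 days old, were sampled before treatment (0 h), after 12, 24 and 72 h at 10/8 ºC day/night, and at 84 and 96 h, that is 12 and 24 h into recovery growth. The 35 libraries make 12 groups of 3 replicates, apart from 9311 at 84 h, where replicates 1 and 3 were given.

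Plant cells grow when turgor stretches a wall that has been loosened. Expansins loosen walls at acid pH without cutting polymers, by weakening the contact between cellulose and the matrix; in grasses, beta-expansins form a large group, and some act on the glucuronoarabinoxylan matrix that is typical of grass walls. XTHs cut xyloglucan, a hemicellulose that coats cellulose, and rejoin the cut end to another chain or to water. In Arabidopsis, XTH22 is the touch-induced gene TCH4, and XTH31 acts largely as a hydrolase. The expansin-like genes resemble expansins in sequence, and no wall-loosening activity has been established for them.

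Reads counted per library ran from 28004101 to 68927044, with a median of 41334252, and levels are given in FPKM (fragments on a transcript, scaled to its length and to the depth of the library), as deposited, in the order of the replicate numbers. Of the 91 members, 52 had a mean FPKM of at least 0.5 over the 35 libraries and were tested by the quasi-likelihood method of edgeR, with p-values adjusted as Benjamini-Hochberg over all 22961 loci that met this limit. The tested members were 14 EXPA, 11 EXPB, 5 expansin-like genes and 22 XTHs. EXPA9 and EXLB1 met the limit only through the group where each was highest, DC90 at 0 h and 9311 at 72 h (mean FPKM of 0.352 and 0.489 over the other libraries), so they had to differ, and their calls are given as descriptions. Counts below include them; at 72 h against 0 h the other 50 members gave 4 higher and 28 lower in 9311 and 1 and 23 in DC90. DEGs are loci with a log2 fold change of 2 or more in either direction and an adjusted p no higher than 0.001, relative to 0 h of their own genotype. A member is said to have risen, fallen or changed where the log2 fold change was 1 or more in either direction with an adjusted p no higher than 0.05. Every response to chilling or recovery in a genotype shares the same 3 libraries at 0 h. The libraries at 12 and 84 h were taken at the opposite clock phase from those at 0, 24, 72 and 96 h, so time of day and treatment cannot be told apart in their changes from 0 h.

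Several libraries stood apart from the others of their group in the summed level of a list of genes. In 9311 at 12 h, replicate 2 had a summed EXPA level of 615 FPKM against 151 and 214 in the other replicates, and its marker genes of dividing cells summed to 1316 FPKM against 525 and 610. In 9311 at 72 h, replicate 2 had a summed EXPB level of 112 FPKM, while the others lay at 26.1 and 27.3 FPKM. In DC90 at 0 h, replicate 3 had root marker genes at a summed 442.6 FPKM, while all the other libraries lay between 12.8 and 192 FPKM. Replicate 2 of the same group had genes of dividing cells at 2712 FPKM against 1065 and 1189 FPKM, and a summed XTH level of 803 against 491 and 614 FPKM. In 9311 at 96 h, replicate 1 had genes of dividing cells at 3215 FPKM against 1524 and 1261 FPKM. Results that rest on these or other libraries are given with the value without them. Marker genes moved with the treatment: the summed level of 18 leaf genes (subunits of Rubisco and chlorophyll-binding proteins) ran from 25234 to 42563 FPKM at 0 h and from 1287 to 5020 FPKM at 72 h, and that of 33 genes of dividing cells (cyclins, histone H4 and others) from 1065 to 2712 FPKM at 0 h and from 272 to 1484 FPKM over the chilling libraries. Root genes summed to 43.2 to 442.6 FPKM at 0 h. In whole plants, fewer cells of a type and less RNA per cell cannot be told apart, and the part of these markers in the results was not tested.

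Averaged over all libraries, the most abundant member was LOC_Os06g48200, annotated by its match to Arabidopsis XTH25, at 202 FPKM. It was followed by EXLA1 (LOC_Os03g04020) at 128 FPKM, LOC_Os04g53950 (match XTH9) at 96.5, EXPB3 (LOC_Os10g40720) at 87.8, EXPB4 (LOC_Os10g40730) at 85.9, EXPA4 (LOC_Os05g39990) at 78.6, EXPA5 (LOC_Os02g51040) at 70.7 and LOC_Os06g48160 (match XTH22) at 69.8 FPKM. All members together took 0.25% of the counts of 9311 at 0 h, 0.278% at 12 h and 0.113% at 72 h. Without replicate 2 of the group, the mean was 0.250% at 12 h and 0.0747% at 72 h. In DC90 these shares were 0.287%, 0.333% and 0.143%.

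More members fell than rose in the cold, and more fell the longer it lasted. In 9311, 7 members rose and 10 fell at 12 h, 6 rose and 24 fell at 24 h, and 5 rose and 29 fell at 72 h. Over all tested loci, the shares that changed in either direction at these timepoints were 17.8%, 31.5% and 37.7%, and the shares that fell were 8.61%, 16.6% and 20.9%, beside 19.2%, 46.2% and 55.8% of the members. In DC90, 7 members rose and 13 fell at 12 h, 6 rose and 19 fell at 24 h, and 1 rose and 24 fell at 72 h, where 21%, 30.6% and 30.3% of all tested loci changed and 11.6%, 16.3% and 18.1% fell. The share of members that rose was above that of all loci at 12 h (13.5% in each genotype against 9.18% in 9311 and 9.49% in DC90) and below it at 24 h (11.5% in each against 15% and 14.4%) and at 72 h (9.62% against 16.8% in 9311 and 1.92% against 12.1% in DC90). The median log2 fold change of the members at 12, 24 and 72 h was −0.40, −1.46 and −1.65 in 9311 and −0.26, −0.66 and −1.13 in DC90, while the median over all loci lay between −0.09 and 0.00. In 9311 the median at 12 h was −0.77 without 9311 12 h replicate 2, and that at 72 h was −2.16 without 9311 72 h replicate 2. In DC90 the medians were −0.11, −0.55 and −1.29 without DC90 0 h replicate 3. The count of changed members in DC90 at 12 h was 13 without DC90 0 h replicate 3.

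**Figure D1:**
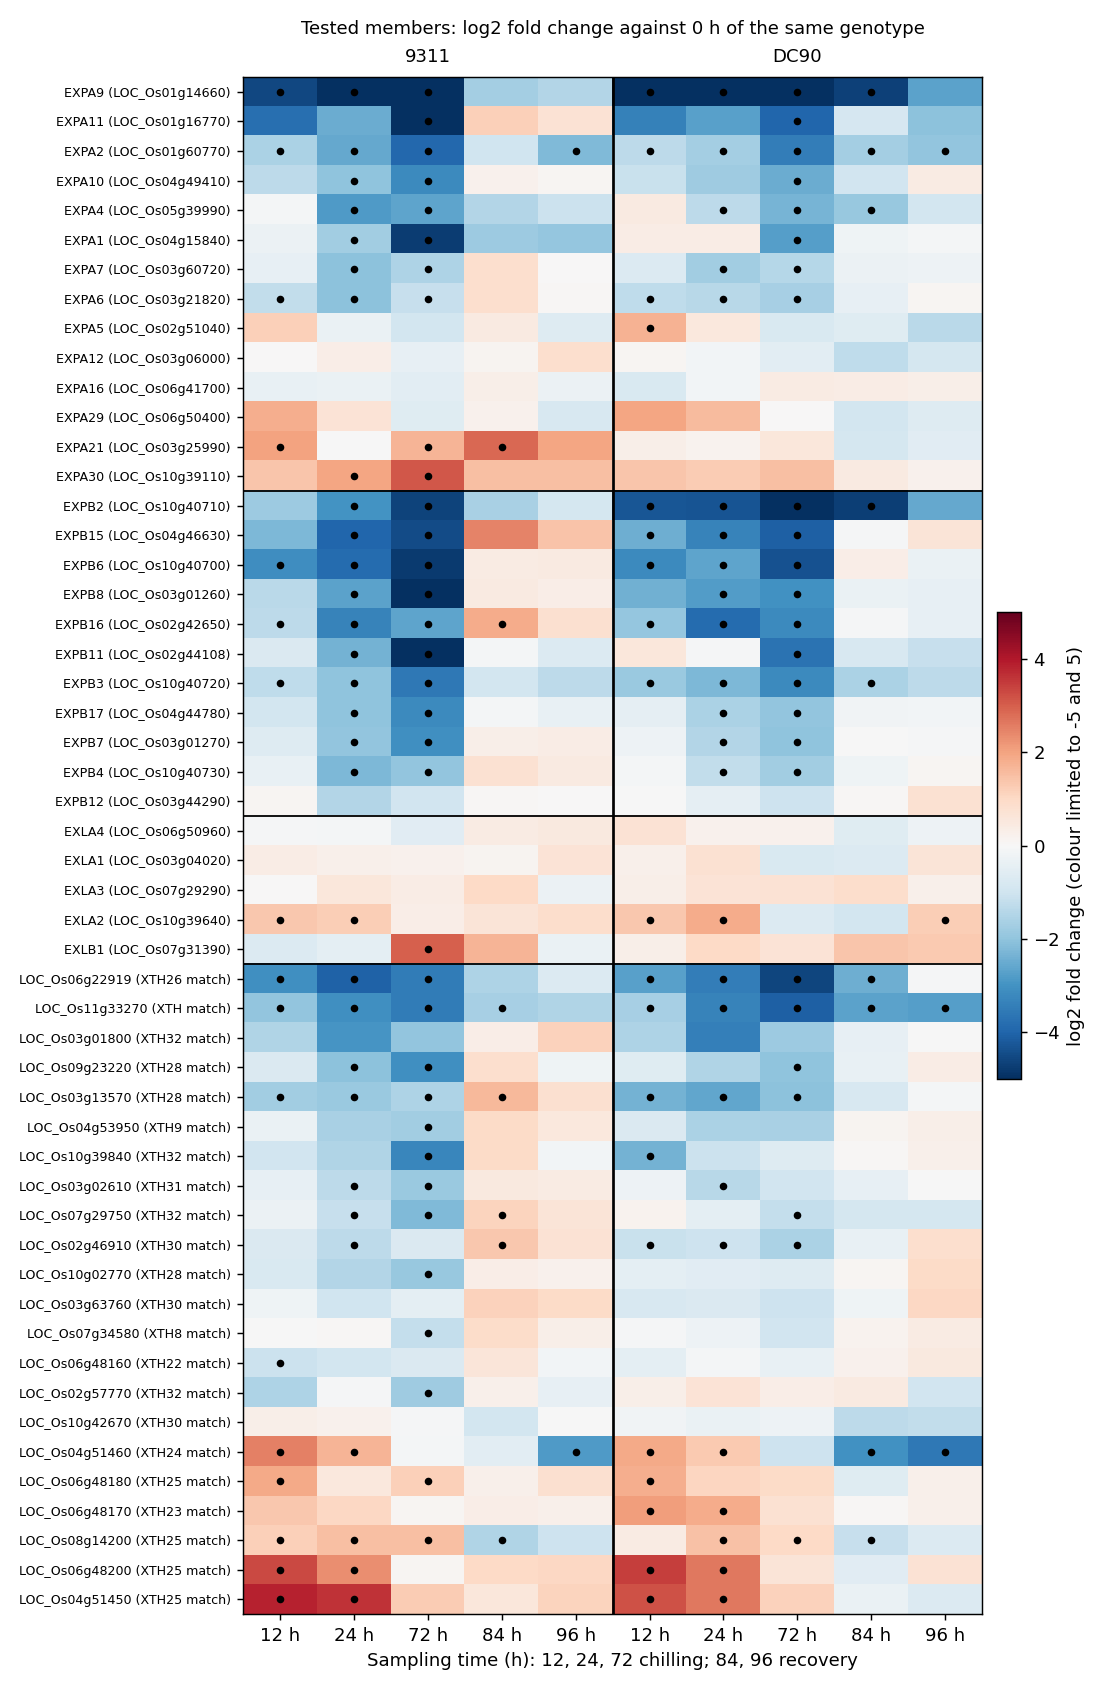
Log2 fold change from 0 h of each of the 52 tested members (rows, by subfamily) at each timepoint (columns, in h) in 9311 and DC90, with marks for members that changed. The beta-expansins are the most uniformly low block at 24 and 72 h, and most cells of both genotypes are near 0 again at 96 h.

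With the stricter thresholds, 20 members were DEGs in 9311 at 1 or more chilling timepoints, 3 higher and 17 lower, and 12 were DEGs in DC90, 1 higher and 11 lower; 14.9% and 11.7% of all tested loci were DEGs in these periods. These counts were 5 and 3 when only the groups of each comparison were fitted, and that of 9311 was 13 without 9311 0 h replicate 3. They include EXPA9 and EXLB1, which had to differ. The other members gave 2 higher and 16 lower in 9311 and 1 and 10 in DC90. In both genotypes 10 members were called, 9 lower and 1 higher. At the looser thresholds 26 members fell and 6 rose at 1 or more chilling timepoints in both genotypes, 9 fell at all 3 timepoints in both, 10 were never called and 0 were called in both directions. For these counts and for the 10 DEGs of both genotypes, the shares of all tested loci were not counted, so the counts are a description only. The 9 that fell throughout were 3 EXPA, 3 EXPB and 3 XTHs. EXPA9 is among these 3 EXPA and among the 9 lower DEGs of both genotypes.

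The beta-expansins fell most widely. At 72 h, 10 of the 11 tested EXPB had fallen in 9311 and 10 of 11 in DC90, with median log2 fold changes of −3.58 and −3.17, and none rose. Leaving out each library in turn gave 10 to 11 falls in 9311 and 9 to 10 in DC90. At 24 h, 10 had fallen in 9311 and 9 in DC90, and at 12 h 3 and 5. At 24 h the count of DC90 was 5 without DC90 0 h replicate 3, DC90 24 h replicate 1 or DC90 24 h replicate 2. At 12 h that of 9311 was 1 without 9311 0 h replicate 3 and 5 without 9311 12 h replicate 2, and that of DC90 was 3 without DC90 0 h replicate 3. The exception at 72 h was EXPB12 (LOC_Os03g44290), which passed in neither genotype (log2 fold change −0.97, SE 0.72, adjusted p = 0.27 in 9311 and log2 fold change −1.02, SE 0.72, adjusted p = 0.27 in DC90). The summed EXPB level went from 363 to 440 FPKM over the 9311 libraries at 0 h to 26.1 to 112 FPKM at 72 h, and from 385 to 601 FPKM to 72.7 to 104 FPKM in DC90, with no overlap in either genotype.

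EXPB3 was the most abundant beta-expansin. Its level in 9311 was 192, 213 and 202 FPKM at 0 h, 43.3, 44.9 and 30.1 FPKM at 24 h and 10.3, 21.7 and 17.1 FPKM at 72 h, and in DC90 218, 117 and 297 FPKM at 0 h and 23.5, 24.4 and 35.5 FPKM at 72 h. All chilled libraries lay below all libraries of 0 h. The fall at 72 h was a DEG in both genotypes (log2 fold change −3.58, SE 0.44, adjusted p = 4.5e-07 in 9311 and log2 fold change −3.18, SE 0.43, adjusted p = 2.8e-06 in DC90).

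EXPB6 (LOC_Os10g40700) was, in the chromosome 10 run of EXPB6, EXPB2, EXPB3 and EXPB4, the only gene that was a DEG at 12 h. In 9311 it stood at 7.59, 19.5 and 18.6 FPKM at 0 h, 1.84, 1.30 and 1.42 FPKM at 12 h and 0.607, 0.438 and 0.473 FPKM at 72 h, and in DC90 at 13.5, 12.8 and 27.7, then 2.10, 2.58 and 0.764 and 0.737, 0.615 and 1.71 FPKM. Groups did not overlap, and the fall was a DEG at all 3 timepoints in both genotypes, with log2 fold change −3.12, SE 0.53, adjusted p = 1.1e-04 at 12 h and log2 fold change −4.80, SE 0.58, adjusted p = 3.6e-07 at 72 h in 9311 and log2 fold change −4.36, SE 0.56, adjusted p = 1.4e-06 at 72 h in DC90. The neighbouring EXPB4 stood at 85.9, 100.1 and 90.8 FPKM in 9311 at 0 h, at 43.0, 113 and 40.1 FPKM at 12 h and at 9.70, 57.5 and 4.70 FPKM at 72 h. Replicate 2 was the high library at both 12 and 72 h, and all 72 h libraries still lay below those of 0 h (log2 fold change −1.99, SE 0.51, adjusted p = 0.0023). In DC90, EXPB4 stood at 83.4, 126 and 123 FPKM at 0 h and 45.5, 29.2 and 43.8 FPKM at 72 h (log2 fold change −1.76, SE 0.51, adjusted p = 0.0073). The handling of reads that fit several of these neighbouring copies is not stated, so the split of the reads among them is uncertain.

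EXPB11 (LOC_Os02g44108) was called lower from 24 h in 9311 and at 72 h in DC90, with an adjusted p of 0.74 for the interaction of genotype and chilling. In 9311 it stood at 20.2, 38.2 and 28.2 FPKM at 0 h, 1.70, 2.88 and 9.70 FPKM at 24 h and 0.487, 1.42 and 0.371 FPKM at 72 h. In DC90 it stood at 20.5, 33.9 and 28.6 FPKM at 0 h, 6.74, 23.7 and 41.4 FPKM at 24 h and 3.13, 2.11 and 2.59 FPKM at 72 h. The 24 h libraries of 9311 lay below those of 0 h, while those of DC90 overlapped them; at 72 h neither genotype overlapped its 0 h libraries. Log2 fold changes were −2.36 (SE 0.65, adjusted p = 0.0052) at 24 h and −5.13 (SE 0.75, adjusted p = 4.6e-06) at 72 h in 9311, and −0.06 (SE 0.62, adjusted p = 0.95) and −3.69 (SE 0.69, adjusted p = 1.4e-04) in DC90.

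**Figure D2:**
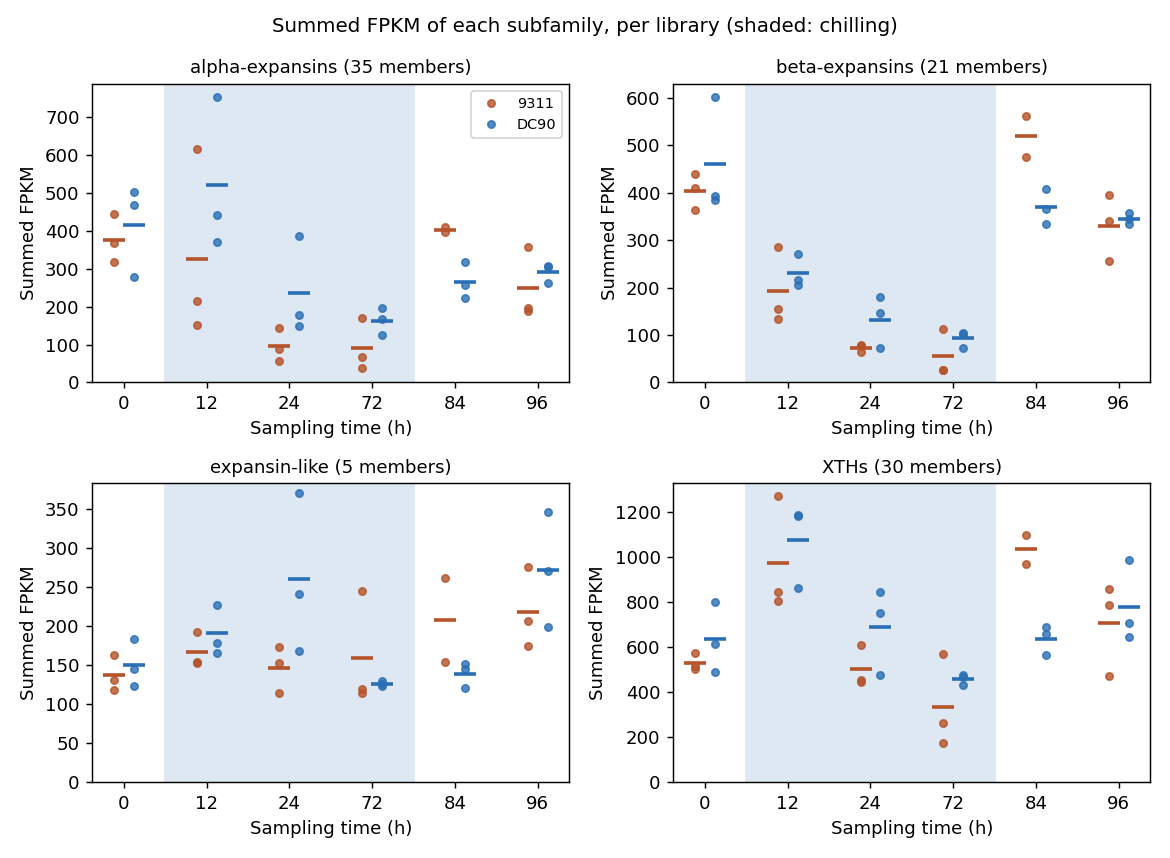
Summed FPKM of the tested and untested members of each subfamily in every library (points, with dashes at the group means) at 0 to 96 h, for 9311 and DC90. The EXPB sum falls through 72 h and is back between 334 and 562 FPKM at 84 h, and the XTH sum is higher at 12 h than at 0 h through LOC_Os06g48200 alone.

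Alpha-expansins fell in part. At 72 h, 8 of the 14 tested EXPA had fallen in each genotype, 2 had risen in 9311 and 0 in DC90, with median log2 fold changes of −1.35 and −1.54. EXPA2 (LOC_Os01g60770) went from 53.2, 71.9 and 58.9 FPKM in 9311 at 0 h to 6.90, 8.64 and 8.98 FPKM at 24 h and 2.21, 2.40 and 6.18 FPKM at 72 h. In DC90 it went from 38.5, 31.3 and 81.2 FPKM to 4.67, 20.4 and 17.4 FPKM and 5.33, 3.54 and 7.52 FPKM. No chilled library reached the 0 h level of its genotype. The fall at 72 h was a DEG in both genotypes (log2 fold change −3.94, SE 0.53, adjusted p = 1.7e-06 in 9311 and log2 fold change −3.45, SE 0.52, adjusted p = 1.1e-05 in DC90). EXPA4, the most abundant alpha-expansin, passed no test at 12 h and was lower at 24 and 72 h. In 9311 it stood at 121, 156 and 135 FPKM at 0 h, 17.9, 13.8 and 11.03 FPKM at 24 h and 8.16, 48.4 and 9.02 FPKM at 72 h, and in DC90 at 107, 116 and 189, then 21.8, 53.0 and 75.0 and 40.2, 19.6 and 37.9 FPKM. It was a DEG at 72 h in both genotypes (log2 fold change −2.63, SE 0.50, adjusted p = 1.2e-04 in 9311 and log2 fold change −2.31, SE 0.49, adjusted p = 5.6e-04 in DC90).

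EXPA9 (LOC_Os01g14660) was scarce, was tested only because of its level in DC90 at 0 h, and had no counts at 24 and 72 h. It had 45, 97 and 59 counts in 9311 and 85, 63 and 501 counts in DC90 at 0 h, and 0 counts in each of the 12 libraries at 24 and 72 h. The 501 counts came from DC90 0 h replicate 3, the library with high root marker genes. Against the level that 3 counts per library would give, EXPA9 was at least 17.9-fold lower at 24 h and at least 19.2-fold lower at 72 h in 9311, and at least 42.0-fold and 55.4-fold lower in DC90, where the bounds were 18.0-fold and 23.7-fold without DC90 0 h replicate 3. EXPA11 (LOC_Os01g16770), another scarce gene, had 0 counts in the 3 libraries of 9311 at 72 h and was at least 14.4-fold lower than at 0 h, where it had 4, 57 and 83 counts (8.21-fold without 9311 0 h replicate 3); in DC90 it had 5 to 8 counts at 72 h and 29 to 308 at 0 h.

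EXPA5 was not called lower at any chilling timepoint. It stood at 37.6, 59.9 and 47.6 FPKM in 9311 at 0 h and 53.4, 235 and 28.4 FPKM at 12 h, and at 48.2, 125 and 43.9 FPKM in DC90 at 0 h and 185, 306 and 160.5 FPKM at 12 h. Every DC90 library of 12 h lay above those of 0 h, while the 9311 groups overlapped, with replicate 2 far above. EXPA5 rose in DC90 (log2 fold change 1.72, SE 0.55, adjusted p = 0.019), a call that ended without DC90 0 h replicate 1, DC90 0 h replicate 3 or DC90 12 h replicate 2 (highest adjusted p = 0.090), and did not pass the test in 9311 (log2 fold change 1.18, SE 0.54, adjusted p = 0.11). EXPA21 (LOC_Os03g25990) and EXPA30 (LOC_Os10g39110) were the 2 alpha-expansins that rose at 72 h in 9311, with log2 fold changes of 1.70 (adjusted p = 0.015) and 3.10 (adjusted p = 0.00102). EXPA21 was not called without 9311 0 h replicate 3 or 9311 72 h replicate 2 (highest adjusted p = 0.16).

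Of the expansin-like genes none fell at a chilling timepoint. EXLA1, the most abundant expansin-like gene, stood at 127, 82.2 and 99.2 FPKM in 9311 at 0 h and 83.9, 191 and 84.7 FPKM at 72 h, and at 146, 79.3 and 115 and 80.5, 80.7 and 84.2 FPKM in DC90. The groups overlapped in both genotypes, and the log2 fold changes were 0.23 (SE 0.32, adjusted p = 0.57) and −0.74 (SE 0.32, adjusted p = 0.066). EXLA2 (LOC_Os10g39640) was the only one that rose in both genotypes, from 15.6, 16.7 and 14.8 FPKM at 0 h to 31.3, 37.4 and 34.5 FPKM at 12 h in 9311 (log2 fold change 1.36, SE 0.38, adjusted p = 0.0088) and from 22.8, 20.5 and 13.8 FPKM to 92.9, 35.8 and 53.2 FPKM at 24 h in DC90 (log2 fold change 1.84, SE 0.38, adjusted p = 4.2e-04). EXLB1 (LOC_Os07g31390), scarce in most groups, rose at 72 h in 9311 and is described with the genotype comparison.

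The XTHs moved in both directions. At 12 h, 5 of the 22 tested XTHs had risen and 4 fallen in 9311, and 5 had risen and 5 fallen in DC90; at 24 h the counts were 4 and 7 in 9311 and 5 and 5 in DC90; and at 72 h 2 had risen and 11 fallen in 9311, while 1 had risen and 6 fallen in DC90, with median log2 fold changes of −1.37 and −0.95. The summed XTH level ran from 503 to 576 FPKM at 0 h and from 807 to 1274 FPKM at 12 h in 9311, and from 491 to 803 FPKM and from 863 to 1186 FPKM in DC90. The 12 h sums lay above those of 0 h in both genotypes, through a single gene, LOC_Os06g48200. The other XTHs summed to 452 to 491 FPKM at 0 h and 417 to 492 FPKM at 12 h in 9311, and to 439 to 736 FPKM and 498 to 555 FPKM in DC90, with overlap in both.

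LOC_Os06g48200, the most abundant member, was the only one that was a DEG in the upward direction in both genotypes. In 9311 it stood at 46.4, 85.0 and 64.6 FPKM at 0 h, 425, 316 and 857 FPKM at 12 h, 246, 246 and 299.8 FPKM at 24 h and 46.0, 131 and 33.2 FPKM at 72 h. In DC90 it stood at 51.7, 67.5 and 50.01 FPKM at 0 h, 631, 346 and 684 FPKM at 12 h, 138, 493 and 311 FPKM at 24 h and 132, 79.5 and 105 FPKM at 72 h. All libraries of 12 and 24 h lay above those of 0 h. The rise was a DEG at 12 h in 9311 (log2 fold change 3.30, SE 0.55, adjusted p = 9.3e-05) and in DC90 (log2 fold change 3.46, SE 0.56, adjusted p = 5.1e-05). At 24 h it was a DEG in DC90 (log2 fold change 2.64, SE 0.54, adjusted p = 3.6e-04) and passed only the looser thresholds in 9311 (log2 fold change 2.32, SE 0.53, adjusted p = 0.0011), and it did not pass at 72 h (log2 fold change 0.10, SE 0.51, adjusted p = 0.89 and log2 fold change 0.64, SE 0.51, adjusted p = 0.34).

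LOC_Os06g48200 lies in a run with LOC_Os06g48160, LOC_Os06g48170 and LOC_Os06g48180, whose best matches are XTH22, XTH23 and XTH25 of Arabidopsis. LOC_Os06g48180 rose at 12 h from 31.8, 42.0 and 40.8 to 139, 80.6 and 127 FPKM in 9311 (log2 fold change 1.91, SE 0.45, adjusted p = 0.0026) and from 27.6, 46.4 and 25.0 to 133, 58.5 and 113 FPKM in DC90 (log2 fold change 1.83, SE 0.45, adjusted p = 0.0034). LOC_Os06g48170 rose in DC90 at 12 h, with a log2 fold change of 2.11 (adjusted p = 0.015), which was not called without DC90 0 h replicate 1 (highest adjusted p = 0.079), and did not pass the test in 9311, with 1.34 (adjusted p = 0.13). LOC_Os06g48160 went the other way at the same timepoint. It stood at 74.3, 94.0 and 59.4 FPKM in 9311 at 0 h and 26.9, 35.8 and 31.5 FPKM at 12 h, a fall with log2 fold change −1.06, SE 0.37, adjusted p = 0.039 that was not called without 9311 0 h replicate 1, 9311 0 h replicate 2, 9311 0 h replicate 3, 9311 12 h replicate 1, 9311 12 h replicate 2 or 9311 12 h replicate 3 (highest adjusted p = 0.13). In DC90 its log2 fold change was −0.47 (adjusted p = 0.36). Neighbouring copies may again share reads.

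Another pair of neighbours, LOC_Os04g51450 and LOC_Os04g51460 (matches XTH25 and XTH24), also rose early in both genotypes. LOC_Os04g51460 stood at 16.7, 20.6 and 18.2 FPKM in 9311 at 0 h and 96.1, 39.5 and 131 FPKM at 12 h, and at 34.9, 47.8 and 19.4 and 131, 82.7 and 129 FPKM in DC90. The 12 h libraries lay above those of 0 h in both genotypes, with log2 fold changes of 2.52 (adjusted p = 0.0011) and 1.89 (adjusted p = 0.0082). LOC_Os04g51450 rose at 12 h by 3.86 (adjusted p = 0.0011) and 3.17 (adjusted p = 0.0038). LOC_Os08g14200, another match to XTH25, was the single member that had risen at 72 h in DC90 (log2 fold change 1.01, SE 0.36, adjusted p = 0.026), not called without DC90 0 h replicate 1, DC90 0 h replicate 2 or DC90 72 h replicate 1 (highest adjusted p = 0.099), and also rose in 9311 (log2 fold change 1.50, SE 0.36, adjusted p = 0.0014). Its ratio of FPKM to depth-scaled counts differed up to 4.92-fold between libraries, so its FPKM and its counts are not interchangeable.

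Among the XTHs that fell, LOC_Os06g22919 (match XTH26) and LOC_Os11g33270 (matched to a wheat XTH) were DEGs in both genotypes. LOC_Os06g22919 stood at 52.7, 14.3 and 26.4 FPKM in 9311 at 0 h, 4.42, 2.06 and 3.75 FPKM at 12 h and 1.56, 8.98 and 1.38 FPKM at 72 h, and at 40.4, 14.6 and 30.1, then 3.31, 2.99 and 2.86 and 1.51, 1.47 and 3.32 FPKM in DC90. The chilled libraries lay below those of 0 h, and the changes at 72 h were −3.48 (SE 0.55, adjusted p = 1.2e-05) in 9311 and −4.59 (SE 0.58, adjusted p = 9.7e-07) in DC90 on the log2 scale. Its ratio of FPKM to depth-scaled counts differed up to 4.45-fold between libraries. LOC_Os11g33270 went from 25.7, 24.8 and 33.5 FPKM in 9311 at 0 h to 3.05, 1.82 and 2.26 FPKM at 72 h (log2 fold change −3.50, SE 0.47, adjusted p = 1.7e-06) and from 41.9, 31.9 and 52.5 to 3.08, 2.82 and 3.16 FPKM in DC90 (log2 fold change −4.08, SE 0.48, adjusted p = 4.2e-07). The levels were without overlap. LOC_Os04g53950, the third most abundant member, stood at 83.4, 104 and 90.9 FPKM in 9311 at 0 h and 15.4, 65.8 and 4.68 FPKM at 72 h. The highest 72 h library was replicate 2, and the fall (log2 fold change −1.75, SE 0.67, adjusted p = 0.033) was not called without 9311 0 h replicate 2, 9311 0 h replicate 3, 9311 72 h replicate 1 or 9311 72 h replicate 3 (highest adjusted p = 0.14). In DC90 the groups overlapped, at 54.0, 249 and 69.5 and 64.7, 31.6 and 52.1 FPKM (log2 fold change −1.63, SE 0.67, adjusted p = 0.053).

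**Figure D3:**
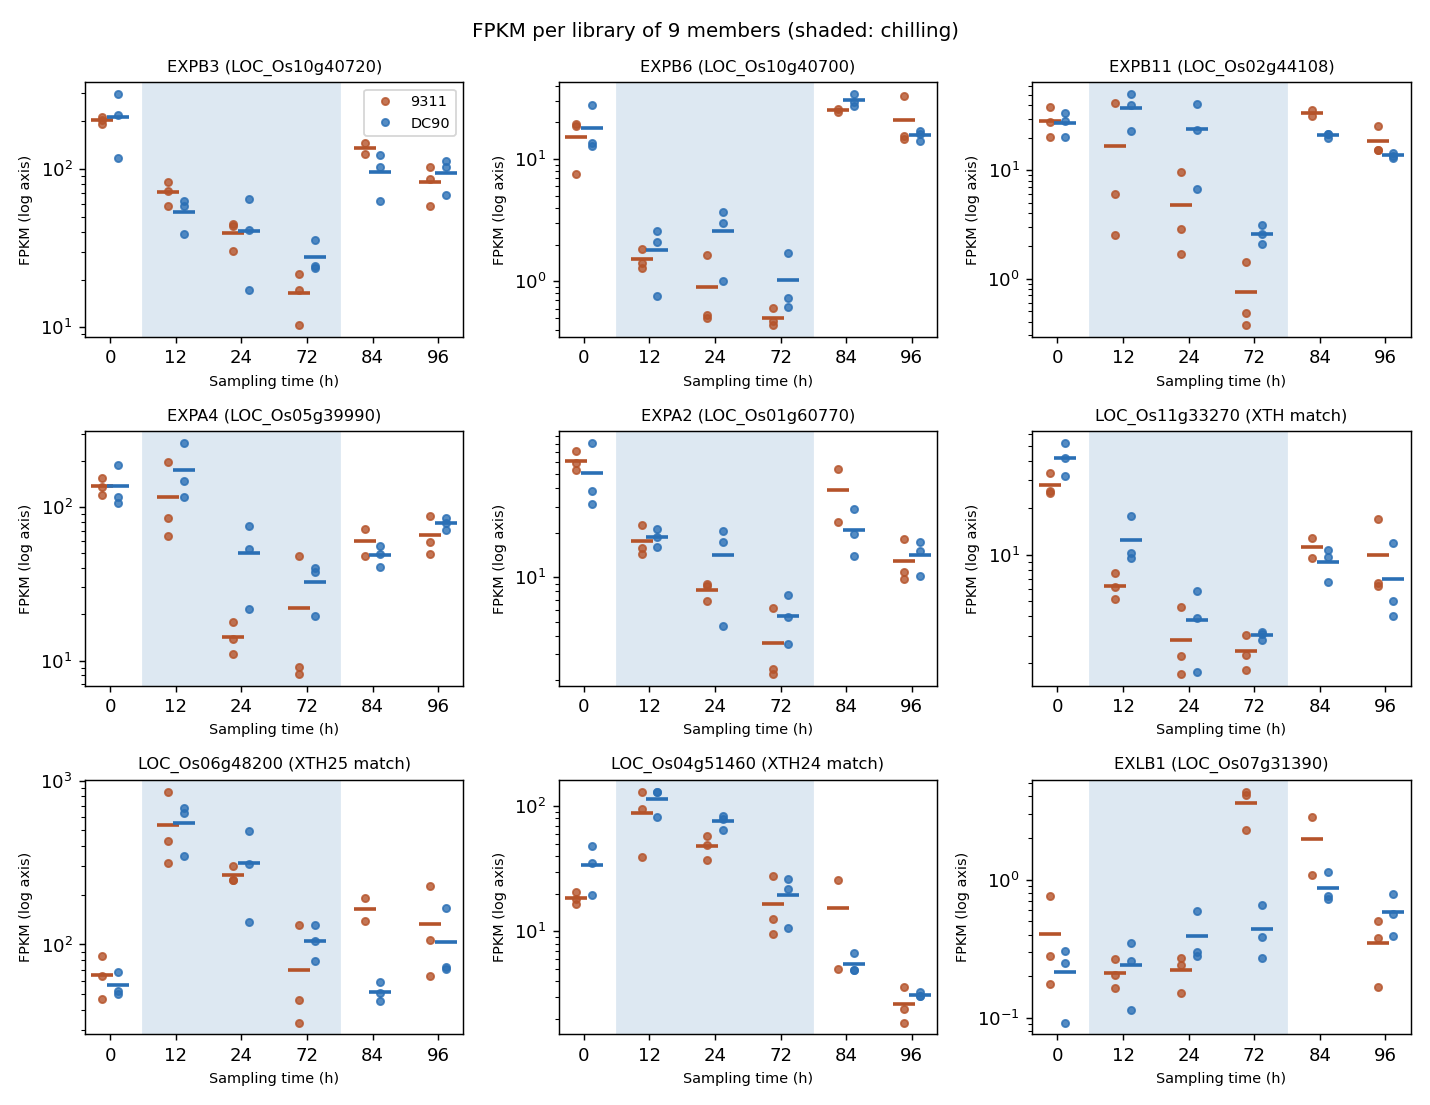
FPKM of selected members in every library (points, with dashes at the group means) against time in h for 9311 and DC90, on log axes. The members are EXPB3, EXPB6, EXPB11, EXPA4, EXPA2, LOC_Os11g33270, LOC_Os06g48200, LOC_Os04g51460 and EXLB1. EXPB3, EXPB6 and EXPA2 fall through 72 h, and LOC_Os06g48200 peaks at 12 h.

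After 12 and 24 h of recovery growth few members differed from 0 h. In 9311, 5 members were higher and 2 lower than at 0 h at 84 h, and 0 were higher and 2 lower at 96 h, where 8.32% and 2.3% of all tested loci had changed. At 84 h 0 members were called without 9311 84 h replicate 3, which left 1 library in the group, whose spread is then assumed to be that of the other groups; the counts were 4, 4 and 2 without 9311 0 h replicates 1, 2 and 3. In DC90, 0 were higher and 9 lower at 84 h, and 1 was higher and 3 lower at 96 h, where 9.85% and 5.2% of all loci had changed; without DC90 0 h replicate 3 the counts were 3 and 2, without DC90 84 h replicate 2 the count at 84 h was 5, and without DC90 96 h replicate 2 that at 96 h was 2. Medians over the members were 0.41 and 0.17 in 9311 and −0.40 and −0.08 in DC90 on the log2 scale. No member was a DEG of the recovery period in 9311, against 1.47% of all loci. In DC90, where 2.89% of all loci were DEGs, LOC_Os11g33270 and LOC_Os04g51460 were DEGs and lower, and 0 members were when only the groups of the comparison were fitted.

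LOC_Os11g33270 did not return within 24 h. It stood at 9.60, 6.65 and 10.7 FPKM at 84 h and 4.01, 5.03 and 11.8 FPKM at 96 h in DC90, all below the 0 h libraries (log2 fold change −2.66, SE 0.45, adjusted p = 1.7e-04 at 84 h and log2 fold change −2.74, SE 0.46, adjusted p = 2.6e-04 at 96 h). In 9311 it stood at 9.495 and 12.8 and 6.58, 6.25 and 17.0 FPKM, also below 0 h. The call at 84 h (log2 fold change −1.65, SE 0.51, adjusted p = 0.039) ended without 9311 0 h replicate 1, 9311 0 h replicate 2, 9311 0 h replicate 3, 9311 84 h replicate 1 or 9311 84 h replicate 3 (highest adjusted p = 0.21), and that at 96 h did not pass (log2 fold change −1.49, SE 0.44, adjusted p = 0.064). EXPA2 was lower than at 0 h in both genotypes at 96 h. Its level was 9.65, 10.9 and 18.2 FPKM in 9311 (log2 fold change −2.22, SE 0.49, adjusted p = 0.013) and 15.1, 10.2 and 17.3 FPKM in DC90 (log2 fold change −1.97, SE 0.49, adjusted p = 0.012). No library of 96 h reached those of 0 h, but the call ended without 9311 96 h replicate 1 or 9311 96 h replicate 2 (highest adjusted p = 0.075) in 9311 and without DC90 0 h replicate 3 or DC90 96 h replicate 2 (highest adjusted p = 0.10) in DC90.

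LOC_Os04g51460, which had risen in the cold, was below its 0 h level after it. At 96 h it stood at 2.39, 1.86 and 3.63 FPKM in 9311 (log2 fold change −2.81, SE 0.55, adjusted p = 0.0044) and 3.03, 3.06 and 3.26 FPKM in DC90 (log2 fold change −3.57, SE 0.57, adjusted p = 1.5e-04). Both groups lay below their 0 h libraries. EXLA2 was the 1 member that was higher than at 0 h at 96 h in DC90, at 44.2, 75.1 and 31.5 FPKM (log2 fold change 1.25, SE 0.37, adjusted p = 0.043), and was not called in 15 of the fits that each left out 1 library (highest adjusted p = 0.30).

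Comparing 96 h with 72 h, which were taken at the same clock phase and do not involve the 0 h libraries, the release from cold raised most members. In 9311, 31 members rose and 4 fell, where 42.4% of all tested loci changed and 22.7% rose; in DC90, 29 rose and 2 fell, where 33.6% changed and 17.1% rose. The members' shares that rose were 59.6% and 55.8%, and their median log2 fold changes 1.57 and 1.44, against 0.04 and 0.02 over all loci. At the DEG thresholds, which 14.2% and 8.82% of all loci passed, 15 rose and 3 fell in 9311 and 5 rose and 1 fell in DC90. All 11 tested EXPB rose in DC90 and 10 in 9311, with medians of 2.55 and 3.44, and none fell. The DC90 count was 7 without DC90 72 h replicate 3. EXPA members rose in 8 and 7 cases (4 in DC90 without DC90 72 h replicate 2), expansin-like genes in 1 and 2, and XTHs in 12 and 9, in 9311 and DC90. Leaf genes rose in this comparison in 16 of 17 tested cases in 9311 and in 15 of 17 in DC90, and genes of dividing cells in 19 and 21 of 29, whose part was not tested.

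EXPB6 rose from 0.607, 0.438 and 0.473 to 15.3, 14.7 and 33.2 FPKM in 9311 (log2 fold change 5.27, SE 0.59, adjusted p = 8.7e-08) and from 0.737, 0.615 and 1.71 to 16.1, 14.1 and 17.1 FPKM in DC90 (log2 fold change 4.02, SE 0.56, adjusted p = 2.9e-06). EXPB16 (LOC_Os02g42650) rose from 1.43, 3.42 and 0.693 to 21.5, 21.3 and 17.3 FPKM in 9311 (log2 fold change 3.44, SE 0.51, adjusted p = 4.2e-06) and from 1.97, 2.04 and 3.21 to 14.4, 14.9 and 15.3 FPKM in DC90 (log2 fold change 2.74, SE 0.49, adjusted p = 7.8e-05). For both genes the groups did not overlap. LOC_Os06g22919 rose by 2.80 and 4.52 on the log2 scale (adjusted p = 1.0e-04 and 1.1e-06). EXPA9 came back from 0 counts to 14 to 43 counts in 9311 and 19 to 28 counts in DC90, at least 6.85-fold and 8.56-fold above the level of 3 counts, and EXPA11 to 48 to 256 counts in 9311, at least 23.5-fold above it (12.0-fold without 9311 96 h replicate 2). LOC_Os04g51460 fell as a DEG in both genotypes (−2.72, adjusted p = 1.8e-04, and −2.53, adjusted p = 5.2e-04), and LOC_Os08g14200 fell in both (−2.55 and −1.71).

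**Figure D4:**
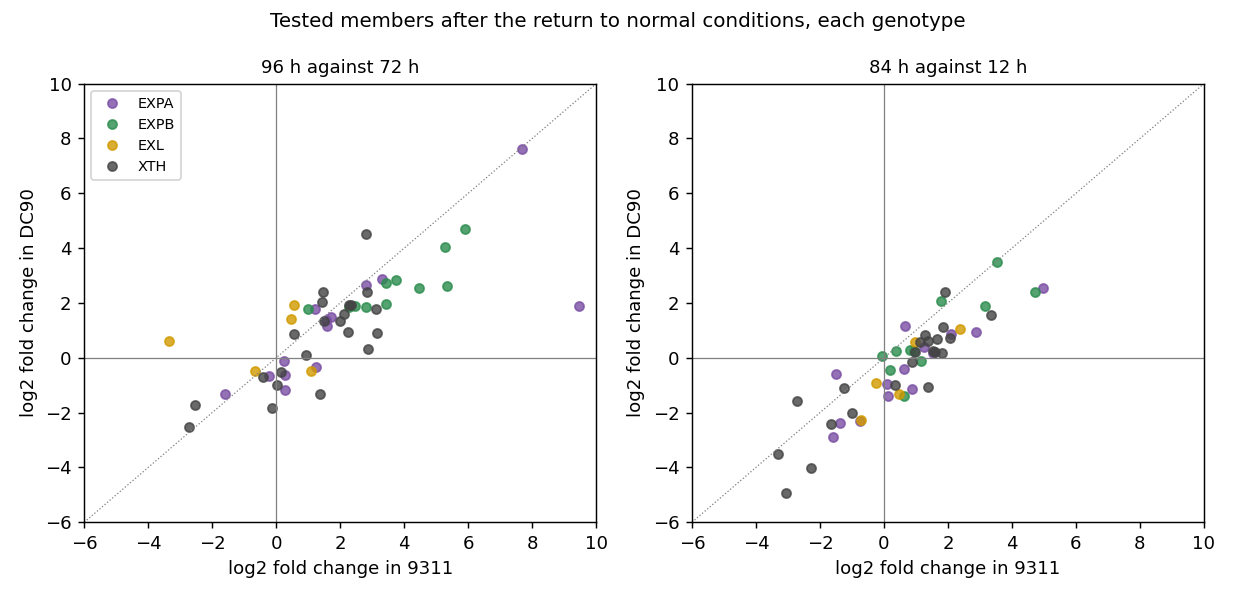
Log2 fold change of each tested member in 9311 (x axis) and in DC90 (y axis), coloured by subfamily, with a dotted line at equal values. The left panel shows 96 h against 72 h and the right panel 84 h against 12 h. In the left panel most points lie above 0 on both axes, with 29 members called higher in DC90 and 31 in 9311. The values there of EXPA9 and, in 9311, EXPA11 rest on groups at 0 counts and have no fixed size.

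The contrast of 84 h with 12 h compares warm with cold plants at the other clock phase. In 9311, 13 members were higher and 5 lower at 84 h, where 28.6% of all loci changed; in DC90, 5 were higher and 12 lower, where 30.7% changed. In 9311 the count was 29 without 9311 12 h replicate 2. The split between higher and lower differed with the scaling and test: on log2(FPKM + 1) values in limma, 28 members were higher and 4 lower in 9311 and 12 higher and 10 lower in DC90. The falls included the early risers. LOC_Os06g48200 stood at 50.3, 44.9 and 58.9 FPKM at 84 h in DC90, below all the libraries of 12 h (log2 fold change −4.02, SE 0.57, adjusted p = 5.0e-06), and at 192 and 139 FPKM in 9311 (log2 fold change −2.29, SE 0.62, adjusted p = 0.0055), a call that ended without 9311 84 h replicate 3 (highest adjusted p = 0.072). LOC_Os04g51460 fell in both genotypes, with −3.06 (adjusted p = 6.7e-04) and −4.93 (adjusted p = 5.7e-07). EXPA5 and EXPA4 were lower at 84 h than at 12 h in DC90 (−2.32, adjusted p = 0.0017, and −2.37, adjusted p = 4.5e-04). Among the members that rose in both genotypes, EXPB6 went from 1.84, 1.30 and 1.42 to 25.7 and 24.6 FPKM in 9311 (log2 fold change 3.52, SE 0.57, adjusted p = 3.8e-05) and from 2.10, 2.58 and 0.764 to 34.2, 29.3 and 27.5 FPKM in DC90 (log2 fold change 3.49, SE 0.54, adjusted p = 1.4e-05).

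The genotypes were compared at each timepoint, which asks whether the line with the wild rice segment held these genes at other levels. Before treatment 0 members differed, against 0.566% of all tested loci, and 0 differed at 12, 84 and 96 h or over the recovery average, where 0.361%, 0.671%, 0.636% and 1.28% of loci differed. In edgeR's test the members with an unadjusted p under 0.05 in these 5 comparisons numbered 3, 8, 9, 1 and 7, and DESeq2 called 1 member at 0 h. All of these counts of 0 except that at 96 h moved when a library was left out. At 0 h 1 member differed without any of 8 libraries (9311 24 h replicate 3, 72 h replicate 2 or 3, 84 h replicate 1 or 3, 96 h replicate 2 or 3, and DC90 12 h replicate 1). At 12 h 4 members differed without 9311 12 h replicate 2, and 1 without 9311 96 h replicate 3, DC90 12 h replicate 3 or DC90 24 h replicate 1 or 3. At 84 h and over recovery 1 did without 9311 84 h replicate 1. At 24 h 2 members differed, where 0.749% of loci did; at 72 h 4 were higher and 1 was lower in DC90, where 3.76% differed; and over the average of the 3 chilling timepoints 8 were higher and 0 lower, where 3% of loci differed and 2.38% were higher. The members higher in DC90 thus made up 15.4% of those tested. The median difference over the members was 0.48 on the log2 scale, against −0.01 over all loci, and 47 of the 52 lay above 0. A shift of this kind was there before chilling, with a median of 0.40 and 42 of 52 above 0 at 0 h. The median at 0 h was 0.20 without DC90 0 h replicate 3. The shift was the other way at 84 h, with a median of −0.55 and 42 of 52 below 0, and at 96 h the median was 0.09. Medians over all loci at these 3 timepoints lay between −0.01 and 0.03. The count of 8 ran from 4 without DC90 24 h replicate 3 to 14 without 9311 72 h replicate 2, was 3 when only the groups of the comparison were fitted, was 13 without 9311 12 h replicate 2, and was 5 without 9311 12 h replicate 1 or 3 or DC90 12 h replicate 2. The count of 5 at 72 h was 16 without 9311 72 h replicate 2 and 3 without 9311 72 h replicate 3 or DC90 72 h replicate 1. At 24 h, 0 were called without 9311 24 h replicate 1 or DC90 24 h replicate 3, 1 without replicate 2 of either genotype at 24 h and 4 without 9311 72 h replicate 2.

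The 8 members higher in DC90 over the chilling average were LOC_Os02g57770 (2.06), EXPB11 (1.73), LOC_Os07g29750 (1.62), EXPA21 (1.46), LOC_Os09g23220 (1.25), EXPA5 (1.19), LOC_Os06g48170 (1.11) and EXPB7 (1.07), on the log2 scale. By match, 2 of the XTHs among them were XTH32, 1 was XTH28 and 1 was XTH23. EXPA5 was not called without DC90 24 h replicate 3 (highest adjusted p = 0.053), EXPB7 without 9311 12 h replicate 1, 9311 12 h replicate 3, 9311 72 h replicate 1, 9311 72 h replicate 3, DC90 12 h replicate 2 or DC90 24 h replicate 3 (highest adjusted p = 0.063), LOC_Os09g23220 in 17 of the fits that each left out 1 library (highest adjusted p = 0.11), and LOC_Os06g48170 in 28 of the fits that each left out 1 library (highest adjusted p = 0.11). In the same comparison 0 of 29 tested genes of dividing cells and 0 of 9 root genes differed, and 1 leaf gene was higher and 1 lower of 17; their medians were 0.13, 0.32 and 0.38.

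LOC_Os07g29750 had the lowest adjusted p of the members in this comparison. At 0 h it stood at 18.8, 23.6 and 18.6 FPKM in 9311 and 30.6, 36.2 and 39.6 FPKM in DC90, at 24 h at 5.06, 7.35 and 10.1 and 10.6, 23.9 and 33.6 FPKM, and at 72 h at 3.57, 4.84 and 4.46 and 19.9, 17.7 and 18.3 FPKM. The DC90 libraries lay above those of 9311 at these 3 timepoints. At 12 h the gene had 851, 2249 and 670 counts in 9311 and 3444, 3425 and 2038 in DC90, not scaled to depth. It was not called there. The difference between the genotypes at 0 h did not pass either (log2 fold change 0.90, SE 0.32, adjusted p = 0.34). It passed at 72 h (log2 fold change 1.92, SE 0.33, adjusted p = 8.3e-04) and over the chilling average (log2 fold change 1.62, SE 0.19, adjusted p = 2.0e-06), each without loss when any library was left out, and at 24 h (log2 fold change 1.56, SE 0.32, adjusted p = 0.013), which was not called without 9311 24 h replicate 1 or DC90 24 h replicate 3 (highest adjusted p = 0.12). Against its own 0 h, the gene was a DEG at 72 h in 9311 (log2 fold change −2.22, SE 0.33, adjusted p = 6.4e-06) and also fell in DC90 (log2 fold change −1.20, SE 0.32, adjusted p = 0.0039); the interaction of genotype and chilling had an adjusted p of 0.84, so a difference in response was not shown.

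LOC_Os02g57770, a scarce XTH matched like LOC_Os07g29750 to XTH32, stood at 0.554, 0.329 and 0.0708 FPKM in 9311 and 3.67, 1.20 and 2.22 FPKM in DC90 at 72 h. The groups did not overlap (log2 fold change 2.61, SE 0.60, adjusted p = 0.011). The call at 72 h ended without 9311 72 h replicate 3 or DC90 72 h replicate 1 (highest adjusted p = 0.072), while that over the chilling average was kept (log2 fold change 2.06, SE 0.34, adjusted p = 2.9e-04). LOC_Os03g02610 (match XTH31) stood at 2.50, 4.23 and 2.14 FPKM in 9311 and 9.30, 7.15 and 8.86 FPKM in DC90 at 72 h, again with no overlap (log2 fold change 1.32, SE 0.30, adjusted p = 0.011), and was not called without 9311 72 h replicate 1 or 9311 72 h replicate 3 (highest adjusted p = 0.074).

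EXLB1 was the single member called lower in DC90 at a timepoint. At 72 h it stood at 4.33, 2.30 and 4.11 FPKM in 9311 and 0.649, 0.387 and 0.272 FPKM in DC90, while at 0 h it stood at 0.754, 0.280 and 0.176 and 0.306, 0.0917 and 0.247 FPKM. The 3 chilled 9311 libraries stood alone above the rest of these groups. EXLB1 was tested only because of these libraries, and its log2 fold changes, −3.08 between the genotypes, 2.99 against 0 h and −3.34 from 72 to 96 h in 9311, are a description. With no limit on the mean FPKM they were −3.05, 2.97 and −3.25 (edgeR adjusted p = 0.0061, 5.0e-04 and 1.7e-04). EXLA4 (LOC_Os06g50960) stood at 7.32, 3.58 and 4.95 FPKM in 9311 and 14.6, 13.8 and 13.8 FPKM in DC90 at 72 h. Its groups did not overlap (log2 fold change 1.10, SE 0.31, adjusted p = 0.034), but the call ended without 9311 72 h replicate 2, 9311 72 h replicate 3, DC90 72 h replicate 1, DC90 72 h replicate 2 or DC90 72 h replicate 3 (highest adjusted p = 0.13).

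EXPA21 was the other member called at 24 h, at 0.668, 0.344 and 1.62 FPKM in 9311 and 2.96, 5.67 and 6.58 FPKM in DC90 (log2 fold change 2.53, SE 0.58, adjusted p = 0.029). It was not called there without 9311 24 h replicate 1, 9311 24 h replicate 2, DC90 24 h replicate 2 or DC90 24 h replicate 3 (highest adjusted p = 0.14). Its 0 h levels, 1.05, 1.32 and 0.805 FPKM in 9311 and 3.11, 4.80 and 7.04 FPKM in DC90, were also without overlap and did not pass (log2 fold change 2.35, SE 0.57, adjusted p = 0.056). EXPB11 had the largest gap at 24 h among the beta-expansins, with 1.70, 2.88 and 9.70 FPKM in 9311 and 6.74, 23.7 and 41.4 FPKM in DC90, where the groups overlapped (log2 fold change 2.35, SE 0.65, adjusted p = 0.090), and passed over the chilling average (log2 fold change 1.73, SE 0.37, adjusted p = 0.0043).

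**Figure D5:**
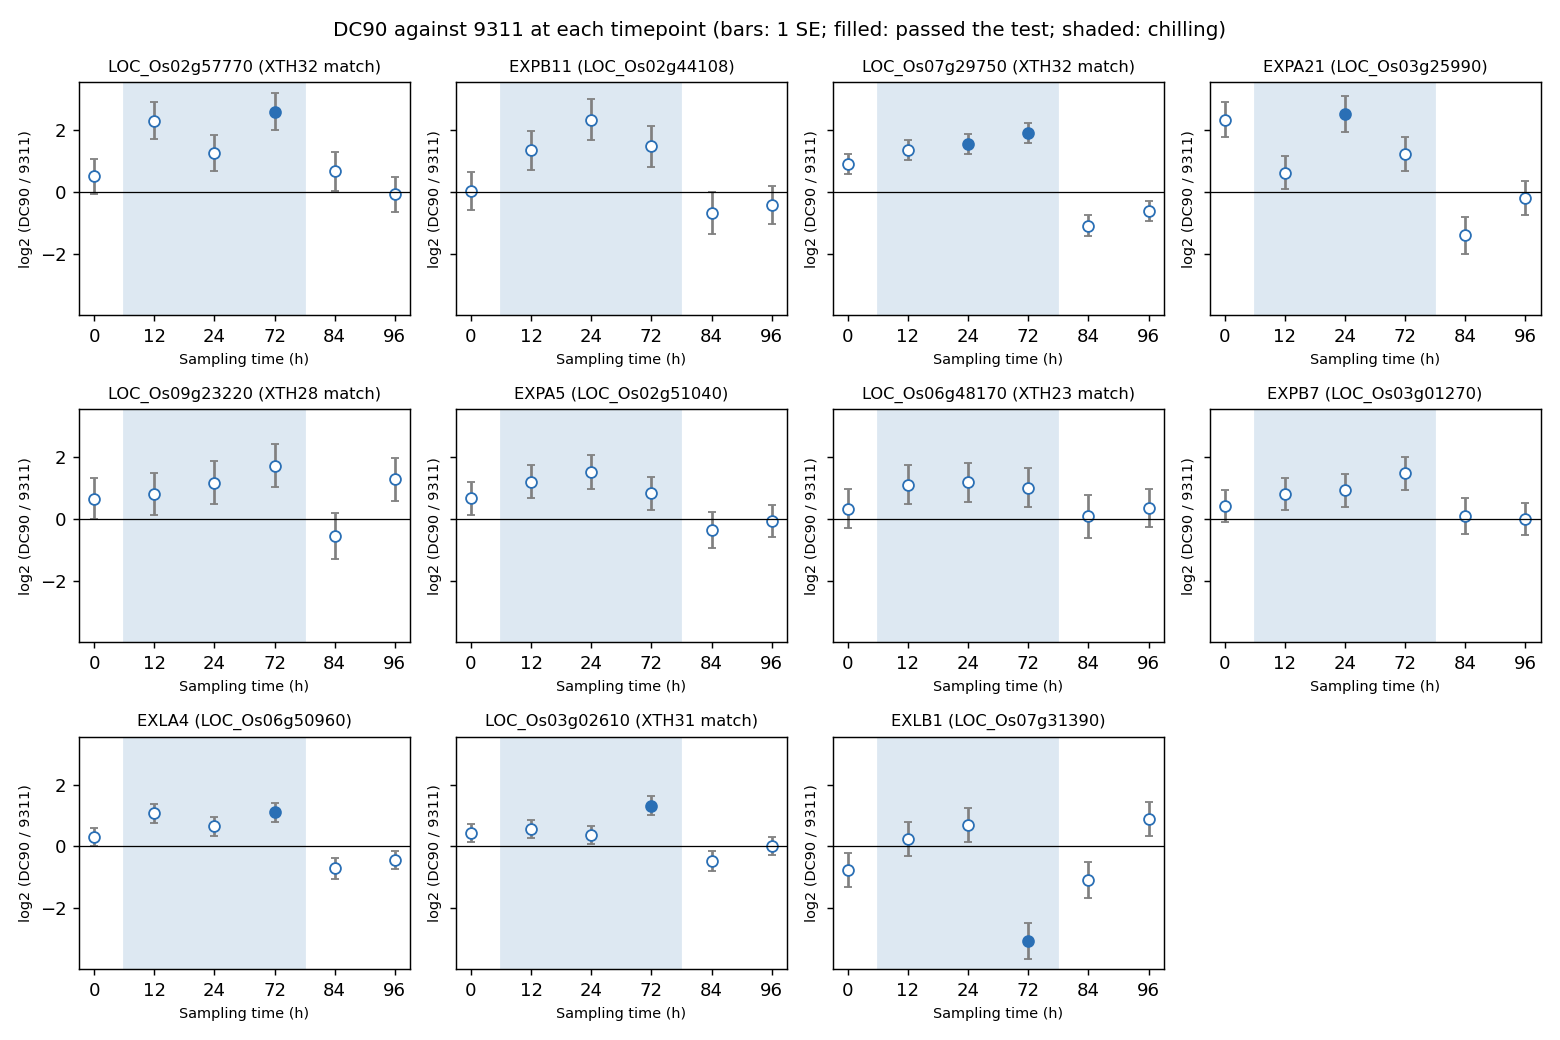
Log2 fold change of DC90 against 9311 at each timepoint, in a panel per member, with SE bars. Shown are the 8 members higher in DC90 over the chilling average, and EXLA4, LOC_Os03g02610 and EXLB1. Points are filled where the member passed the test at that timepoint. The chilling average itself is not drawn. Filled points are those called at 24 h (2 higher in DC90) and at 72 h (4 higher and 1 lower). None is filled at 0 or 12 h or in recovery.

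A difference in response was tested with the interaction of genotype and timepoint. No member reached an adjusted p of 0.05 in chilling or in recovery, against 0.27% and 0.148% of all loci. With an unadjusted p under 0.05 there were 4 and 8 members, and DESeq2 called 1 and 3. In edgeR 1 member was called in chilling without 9311 72 h replicate 2 and 3 in recovery without 9311 84 h replicate 1. The counts of members called in 9311 and not in DC90, 10 DEGs in chilling, and in DC90 and not in 9311, 2 DEGs, are therefore not shown to be differences in response.

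Other genes of wall extension, listed by description, were compared at 72 h with 0 h. Over all tested loci, 16.8% rose and 20.9% fell in 9311, and 12.1% rose and 18.1% fell in DC90. A count near these shares is not a result about its list. Falls were above these shares in fasciclin-like arabinogalactan proteins, a family of wall glycoproteins. In each genotype 1 of 21 tested rose and 12 fell, with medians of −1.60 in 9311 and −1.64 in DC90. Genes of xyloglucan synthesis and trimming, which build and shorten the chains that XTHs join, fell in 6 of 13 cases and rose in 0 in 9311, and fell in 2 and rose in 1 in DC90 (medians −1.22 and −0.87). Endoglucanases, which cut glucan chains, fell in 6 of 19 cases and rose in 3 in 9311, and fell in 4 and rose in 1 in DC90 (−0.77 and −0.17). Catalytic subunits of cellulose synthase fell in 3 of 9 and 1 of 9 cases and rose in none (−0.93 and −0.22). Plasma membrane ATPases, the proton pumps that acidify the wall, fell in 2 of 7 cases and rose in 2 in 9311, and fell in 1 and rose in 2 in DC90.

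Of the genes that act on pectin, polygalacturonases fell in 10 of 25 tested cases and rose in 4 in 9311, and fell in 5 and rose in 3 in DC90 (medians −0.82 and −0.27). Pectinesterases fell in 4 of 9 cases in each genotype, and rose in 4 in 9311 and 2 in DC90. Pectate lyases fell in 2 of 3 cases in 9311 and 1 of 3 in DC90. COBRA-like genes, which help to orient cellulose, fell in 1 of 9 cases and rose in 0 in 9311, and fell in 2 and rose in 1 in DC90. These counts, too, stand beside 20.9% of all tested loci that fell and 16.8% that rose in 9311. In DC90 these shares were 18.1% and 12.1%. The marker genes at the same timepoint fell in 16 and 15 of 17 tested leaf genes, in 19 and 18 of 29 genes of dividing cells and in 5 and 5 of 9 root genes, with medians of −3.81 and −3.76, −2.32 and −2.17, and −3.07 and −2.19 in 9311 and DC90.

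The other 39 members, 21 EXPA, 10 EXPB and 8 XTHs, had a mean FPKM below 0.5 and were not tested; the nearest on either side of this limit were LOC_Os02g17880 (match XTH26) at 0.458 FPKM and EXPA9 at 0.630 FPKM. For 4 of them no library had a count, among them EXPA26 (LOC_Os12g36040), the only member on chromosome 12, where CTS-12 lies. In 11, some library reached at least 1 FPKM. Of the 35 with FPKM above 0, 16 had their highest value in DC90 0 h replicate 3, the library with high root marker genes, including EXPB18 (LOC_Os05g15690) at 4.33 FPKM and EXPA13 (LOC_Os02g16730) at 3.00 FPKM. By locus number, 45 of the 91 members lay in 15 runs of neighbouring members, of which 17 were tested.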

How the data were processed

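The samples were whole plants, and the deposited values per locus were read counts and FPKM. Per the paper, the authors mapped the reads with HISAT2 to the rice genome of annotation Release 7. The processing notes name Bowtie 0.12.2 and the mouse build mm8 instead, which cannot describe rice loci. The counting tool, the strand setting and the handling of reads that align to several loci are not given in the sources used here, so values of near-identical, neighbouring and overlapping loci are uncertain. FPKM values were deposited by the authors beside the counts and do not follow from them by depth and length alone. Each library was used as deposited, and 0 columns of values per library were left out. Replicates are labelled as separate samples, and p-values measure the spread between them.

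edgeR 4.0.16 in R 4.3.3 was used for the counts: TMM, estimateDisp, glmQLFit with the 12 groups of genotype and timepoint in 1 fit over all 35 libraries, and glmQLFTest, with Benjamini-Hochberg adjustment over 22961 loci (mean FPKM of 0.5 or more). The total count per library, 28004101 to 68927044, sets the precision, and each bound against 0 counts uses 3 counts per library and covers counting error only. SEs were derived from the fold change and its F statistic. An alternative is named where it moves a result: limma 3.58.1 on log2(FPKM + 1) or log2(FPKM + 0.1), DESeq2 1.42.0, DESeq2 size factors, other filters and thresholds, a replicate block, a fit to only the groups compared, and each library left out in turn. Tables and figures were made with Python 3.11.15, pandas 2.3.3, numpy 2.4.6 and matplotlib 3.10.9. Tested on simulated counts of the 22961 loci, DEG calls found 80 of the 100 loci altered (0 false). These loci were changed by 3 on the log2 scale in DC90 at 24 h. Genotype calls found 100 of 100 (2 false), and interaction calls 77 of 100 (5 false). The share of differences that these calls find in the deposited libraries, whose replicates differ as described above, was not tested.

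The members, the marker lists and the lists of other wall genes were chosen with earlier results of these data known. Named with values were the 8 members of highest mean FPKM, the members with the largest falls and rises among DEGs shared by both genotypes, and every member that differed between the genotypes at a timepoint; further members were named after their values were seen, where a count was small or a neighbour was described. Sequences of the members were not analysed here.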

Additional observations from a re-analysis of the deposited data

Results flagged for a closer look

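In recovery, 7 members moved in opposite directions from 0 h in the genotypes, in 8 cases, at 84 or 96 h. In counts scaled to the library sizes with TMM, every library lay above all those of 0 h in 9311 and below all those of 0 h in DC90. The cases were picked for this lack of overlap. The share of all tested loci with such moves was not counted, so the 8 cases are a description only. In FPKM this held in 2 of the 8 cases, both of LOC_Os07g29750, and against the mean of 0 h in 5; it did not hold against that mean for LOC_Os02g46910, LOC_Os06g48200 and EXLA4. The difference at each single timepoint was not tested, and 9311 at 84 h has 2 libraries. Log2 fold changes are given for 9311 and then DC90. At 84 h they were 2.89 and −0.86 for EXPA21, 1.60 and −0.81 for LOC_Os03g13570 (match XTH28), 1.34 and −0.39 for LOC_Os02g46910 (match XTH30), 1.11 and −0.89 for LOC_Os07g29750, and 1.01 and −0.56 for LOC_Os06g48200. At 96 h they were 0.82 and −0.43 for EXPB16, 0.65 and −0.88 for LOC_Os07g29750, and 0.50 and −0.25 for EXLA4. The interaction of genotype and timepoint over both recovery timepoints, in edgeR's quasi-likelihood test, had an adjusted p of 0.076 for EXPA21, 0.089 for LOC_Os07g29750, 0.11 for LOC_Os02g46910, 0.22 for LOC_Os03g13570, 0.39 for EXPB16, 0.54 for EXLA4 and 0.60 for LOC_Os06g48200, so 0 of the 7 passed. EXPA21 rose in 9311 at 84 h from 1.05, 1.32 and 0.805 FPKM to 4.08 and 15.3 FPKM, a call that was lost without 9311 84 h replicate 3 (highest adjusted p = 0.32). The calls of the other members in 9311 at 84 h were also lost without that library, with the count of members called there at 0.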

How the results depend on the processing

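Over 8 alternatives, 0 of 126 called values of the named members reversed, 39 fell below the thresholds in 1 or more, and 28 of these losses came with a fit to only the groups compared, where fewer libraries estimate the spread. DESeq2 and its size factors lost 0. With a mean FPKM of at least 1, 13 of the 126 could not be fitted, since their loci lay below that limit. Counts of members moved as follows. DEGs in chilling were 20 in 9311 and 12 in DC90, 5 and 3 with only the groups compared, and 40 and 34 at the looser thresholds; DEGs in recovery were 0 in 9311 (1 with either limma fit, 3 with DESeq2, 9 at the looser thresholds) and 2 in DC90 (5, 0 and 10 with DESeq2, only the groups compared and the looser thresholds). At 84 h against 12 h in 9311, 18 members had changed (13 higher, 5 lower), 32 (28 and 4) with limma on log2(FPKM + 1), 30 (26 and 4) on log2(FPKM + 0.1) and 7 (7 and 0) with only the groups compared; in DC90 the split of 5 higher and 12 lower became 12 and 10 or 14 and 9 with limma, which moved the median of all loci by up to 0.43 and 0.54 on the log2 scale. Between the genotypes, 0 members at 0 h became 1 with no filter or DESeq2, and 8 in chilling became 13 with limma on log2(FPKM + 0.1), 3 with only the groups compared and 14 with adjusted p alone. Interactions in chilling became 1 with either limma fit or DESeq2, and in recovery 3 with DESeq2. The cause of these shifts was not tested.

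With each library left out in turn, DEGs in chilling ran from 13 to 27 in 9311 and from 9 to 14 in DC90, and in recovery from 0 to 0 and from 2 to 2. Changes at 96 h against 72 h (35 and 31) ran from 32 to 39 and from 24 to 32, and at 84 h against 12 h (18 and 17) from 12 to 29 and from 14 to 20. Genotype differences ran from 0 to 1 at 0 h, from 4 to 14 in chilling and from 0 to 1 in recovery, and interactions from 0 to 1 and from 0 to 3.

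Replicate numbers do not pair the libraries: deviations from group means of libraries with the same number had a mean correlation of 0.0022 (−0.42 to 0.46 over 187 pairs), and 14 of 35 libraries correlated best with their own number. With a replicate block, 8 members differed in chilling and 1 of the 126 values fell below the thresholds.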

Other observations

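LOC_Os03g01800, annotated by its match to Arabidopsis XTH32 and named after its values were seen, was nearly absent in part of the chilled libraries. It had 1 or 2 counts in 5 of the 18 libraries taken in the cold and 72 to 962 counts in the other 13, while the 17 libraries of 0, 84 and 96 h had 682 to 6561 counts. With this spread no fall passed the test, although the log2 fold change at 24 h was −2.96 (SE 1.52, adjusted p = 0.12) in 9311 and −3.41 (SE 1.54, adjusted p = 0.079) in DC90.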
